A study of Mus musculus with 18 samples.

Results

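The genes *Itpr1*, *Cacna1a*, *Atp2b2*, *Calb1*, *Pcp2* and *Car8*, which are known for calcium signalling in cerebellar Purkinje neurons or for inherited ataxia, were followed through brain cell fractions of a mouse model of spinocerebellar ataxia. Members were picked by name, with earlier results of these data known, as 6 of the 35960 names in the count table, and their 46 transcript entries among 116873 were summed by name. Whole brains of mice aged 10 months on a C57BL/6 background had been dissociated, and microglia (CD11b beads), astrocytes (ACSA-2 beads) and neurons (the unlabelled cells left after depletion of other types) had been isolated one after another with magnetic beads. The wild-type (WT) mice and their *Atxn2*-CAG100-KIN littermates, which are homozygous for an *Atxn2* knock-in allele with an expanded CAG repeat, were left untreated, and the knock-in is carried by every cell of the body. Each of the 6 groups had 3 libraries, 18 in all, made from the 3′ ends of RNA with an added polyadenylation step. The 3 fractions were taken from the same brains, so the 9 libraries of a genotype stand for 3 mice. WT and KIN mice had been matched by sex, with more male than female animals, and as the labels do not say which library is of which sex, sex and the spread within a group cannot be told apart.

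As background, Purkinje neurons are the output cells of the cerebellar cortex. In these neurons, glutamate receptors on the dendrite drive the production of inositol trisphosphate, which opens the receptor channel encoded by *Itpr1* in the endoplasmic reticulum. Calcium also enters through the P/Q-type channel whose pore is encoded by *Cacna1a*, is bound by calbindin (*Calb1*) and is pumped out of the cell by the ATPase encoded by *Atp2b2*. *Car8* encodes a carbonic anhydrase-related protein without enzyme activity that binds the inositol trisphosphate receptor, and *Pcp2* encodes a modulator of G protein signalling. Mutations in *ITPR1*, *CACNA1A* and *CA8* cause ataxia in humans. *Itpr1*, *Cacna1a* and *Atp2b2* are also used by many other neurons, while *Pcp2* is a classical Purkinje cell marker.

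Library totals ranged from 761481 to 3296398 counts. Between 75.8% and 85.4% of a library lay in the 10 transcript entries with the highest mean count over all 18 libraries. This left 110842 to 649157 counts for all other entries. The WT neuronal libraries were the shallowest, with 761481 to 1017972 counts against 1473194 to 2017932 in KIN neurons. Levels are given as CPM, which are counts expressed for a library of 1000000 counts after TMM scaling of the library sizes, and a gene is called changed where the adjusted *p* in edgeR is at most 0.05 and the log2 fold change is 1 or more in size. The labels of the fractions were compared with marker genes. Summed CPM of 6 astrocyte markers lay between 291 and 423 in the WT and between 191 and 205 in the KIN astrocyte libraries, and at or below 16.6 in the other fractions, and 6 microglia markers lay between 386 and 665 in the microglia libraries and at or below 13.3 elsewhere. In each astrocyte library, however, 6 oligodendrocyte markers summed higher than the astrocyte markers. They lay between 393 and 606 CPM in WT and between 714 and 717 CPM in KIN. The neuronal label was also only partly reflected by its markers. In WT, *Tubb3* averaged 70.9 CPM in neurons against 7.75 CPM in astrocytes, but *Snap25*, a synaptic vesicle fusion protein, averaged 3.81 CPM in neurons against 16.8 CPM in astrocytes. Red blood cell markers (4 haemoglobin genes) summed to 256 to 511 CPM in WT and 110 to 340 CPM in KIN neurons, against at most 23.7 CPM in any glial library, and lay above the 7 general neuronal markers in 5 of 6 neuronal libraries.

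The WT library numbered replicate 2 stood apart in each of the 3 fractions, although the numbers were not shown to mark the same mouse across fractions. Its summed CPM of 7 general neuronal markers (*Tubb3*, *Snap25*, *Syt1*, *Rbfox3*, *Map2*, *Eno2* and *Stmn2*) was 41.8 in astrocytes against 110 and 95.2 in the other WT libraries, and 17.8 in microglia against 49.4 and 39.1. The KIN libraries had 33.7 to 54.7 CPM of these markers in astrocytes and 8.59 to 10.5 CPM in microglia. In the neuronal fraction, these sums were 86.0 to 129 CPM in WT and 118 to 166 CPM in KIN, but the sum of 6 oligodendrocyte markers was 249 CPM in WT replicate 2 against 17.3 and 22.9 CPM in the other WT libraries and 24.3 to 37.9 CPM in KIN. *Mbp*, a myelin protein, had 213 counts there against 3 and 6. All 18 libraries were kept, and for several results the values without WT replicate 2 are given as well. These are bulk samples, in which fewer cells of a type and less RNA per cell cannot be told apart.

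The summed level of the 6 genes was highest in WT astrocytes. It was 98.2, 46.0 and 82.1 CPM in the WT and 32.2, 28.1 and 30.6 CPM in the KIN astrocyte libraries, without overlap. In microglia it was 44.1, 19.8 and 39.9 CPM in WT against 28.1, 25.1 and 26.2 CPM in KIN, with overlap through WT replicate 2 alone. In neurons it was 15.1 to 26.6 CPM in WT and 18.3 to 32.2 CPM in KIN.

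**Figure D1:**
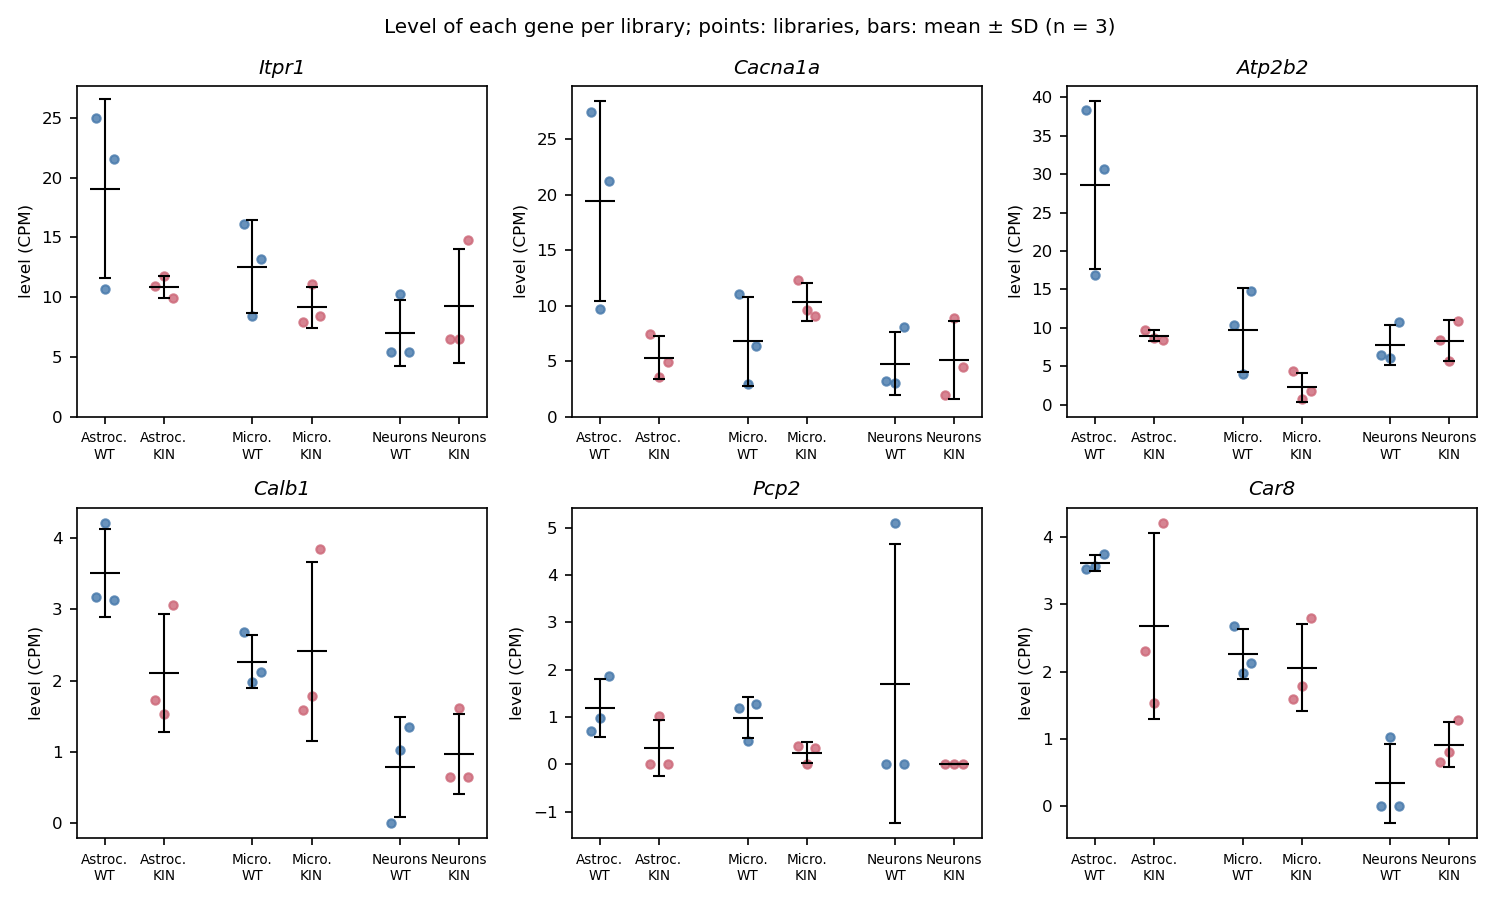
Level of each gene (CPM, vertical axis, one scale per panel) in every library of the astrocyte, microglia and neuronal fractions. Points are libraries of WT and KIN mice and bars are mean ± SD (n = 3). *Atp2b2* and *Cacna1a* lay lower in all KIN than in all WT astrocyte libraries, whereas the neuronal groups overlapped for every gene.

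*Atp2b2* (ENSMUSG00000030302; GRCm39 chromosome 6, 113720766 to 114021022, minus strand), the plasma membrane calcium pump, was the member with the lowest adjusted *p* in astrocytes and the only one called in microglia. In astrocytes, 109, 52 and 98 counts were found in WT and 34, 17 and 22 in KIN, which is 28.6 ± 10.9 CPM against 8.96 ± 0.716 CPM (SD, n = 3 each). Even the lowest WT library, replicate 2 with 16.9 CPM, lay above the highest KIN library with 9.77 CPM. The log2 fold change was -1.67 ± 0.26 (SE, edgeR adjusted *p* = 1.29e-05). Without WT replicate 2 it was -1.94 (edgeR adjusted *p* = 1.18e-12).

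In microglia, *Atp2b2* had 35, 8 and 35 counts in WT and 11, 2 and 5 in KIN, or 9.75 ± 5.48 CPM against 2.28 ± 1.88 CPM (SD, n = 3 each). The groups overlapped here, since WT replicate 2 with 3.96 CPM lay below KIN replicate 1 with 4.36 CPM. The log2 fold change was -2.15 ± 0.46 (SE, edgeR adjusted *p* = 0.0133), and -2.47 without WT replicate 2 (edgeR adjusted *p* = 1.82e-04). The call was lost when WT replicate 1, WT replicate 3, KIN replicate 2 or KIN replicate 3 was left out, where the count of members called fell to 0, and DESeq2 gave an adjusted *p* of 0.0841. In neurons, 6, 6 and 8 counts in WT stood against 13, 7 and 17 in KIN, or 7.79 ± 2.57 CPM against 8.36 ± 2.64 CPM. These groups overlapped over most of their range, with a log2 fold change of -0.04 and a 95% interval from -1.01 to 0.93 (edgeR adjusted *p* = 0.994). The sign of this fold was opposite to that of the mean CPM, so no direction is read from it.

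*Cacna1a* (ENSMUSG00000034656; GRCm39 chromosome 8, 85065224 to 85367997, plus strand), the pore subunit of the P/Q-type calcium channel, fell in astrocytes but not in microglia. In astrocytes it had 78, 30 and 68 counts in WT and 26, 7 and 13 in KIN, or 19.5 ± 9.00 CPM against 5.34 ± 1.97 CPM (SD, n = 3 each). The lowest WT library, replicate 2 with 9.72 CPM, lay above the highest KIN library with 7.47 CPM. The log2 fold change was -1.80 ± 0.30 (SE, edgeR adjusted *p* = 4.12e-05), and -2.11 without WT replicate 2 (edgeR adjusted *p* = 7.29e-12).

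In microglia, *Cacna1a* had 37, 6 and 15 counts in WT and 31, 27 and 26 in KIN, or 6.79 ± 4.04 CPM against 10.4 ± 1.70 CPM (SD, n = 3 each). WT replicate 1 with 11.0 CPM lay within the KIN range of 9.10 to 12.3 CPM, and the other WT libraries lay below it. The log2 fold change of 0.51 ± 0.33 (SE) was not called (edgeR adjusted *p* = 0.61). Between the fractions, the KIN effect on *Cacna1a* was 2.30 ± 0.47 (SE) higher in microglia than in astrocytes on the log2 scale, with a 95% interval from 1.36 to 3.23, and this difference was itself called (interaction term in edgeR over 12 libraries, adjusted *p* = 0.00293). Of the 5 members tested for this interaction it was the only one called, while 1.14% of the 13277 genes tested were called. In neurons, *Cacna1a* had 3, 3 and 6 counts in WT and 3, 11 and 7 in KIN, with overlapping levels of 4.79 ± 2.84 CPM and 5.12 ± 3.51 CPM.

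*Itpr1* (ENSMUSG00000030102; GRCm39 chromosome 6, 108190048 to 108528070, plus strand), the store release channel, was lower in KIN than in WT astrocytes without reaching the fold required for a call. It had 71, 33 and 69 counts in WT and 38, 23 and 26 in KIN, or 19.1 ± 7.46 CPM against 10.9 ± 0.901 CPM (SD, n = 3 each). WT replicate 2 with 10.7 CPM lay within the KIN range of 9.95 to 11.7 CPM, and the other WT libraries lay above it. The log2 fold change was -0.83 ± 0.26 (SE, edgeR adjusted *p* = 0.0278), and without WT replicate 2 it was -1.12 (edgeR adjusted *p* = 6.41e-05), which is past both thresholds. When any of the other 5 libraries was left out, the adjusted *p* was above 0.05, between 0.0518 and 0.224, and DESeq2 gave an adjusted *p* of 0.200. In microglia, 54, 17 and 31 counts in WT stood against 20, 31 and 24 in KIN, or 12.6 ± 3.87 CPM against 9.14 ± 1.71 CPM. The groups overlapped through WT replicate 2 alone, with 8.42 CPM against a KIN range of 7.93 to 11.1 CPM. The log2 fold change was -0.49 ± 0.28 (SE, edgeR adjusted *p* = 0.538). In neurons, it had 5, 10 and 4 counts in WT and 10, 8 and 23 in KIN, and the groups overlapped at 7.00 ± 2.79 CPM and 9.27 ± 4.79 CPM.

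*Car8* (ENSMUSG00000041261; GRCm39 chromosome 4, 8141533 to 8239088, minus strand), the partner of the inositol trisphosphate receptor, was counted in a single transcript entry. It had 10, 11 and 12 counts in WT and 8, 3 and 11 in KIN astrocytes, and 9, 4 and 5 against 4, 5 and 8 in microglia. The groups overlapped in both fractions, with log2 fold changes of -0.42 ± 0.42 (SE, edgeR adjusted *p* = 0.601) and -0.15 ± 0.51 (SE, edgeR adjusted *p* = 0.967). In neurons it had 0, 1 and 0 counts in WT and 1, 1 and 2 in KIN, all at or under a floor of 3 counts in a library.

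*Calb1* (ENSMUSG00000028222; GRCm39 chromosome 4, 15881155 to 15908085, plus strand), the calcium buffer, had 9, 13 and 10 counts in WT and 6, 3 and 8 in KIN astrocytes. The lowest WT library with 3.12 CPM lay just above the highest KIN library with 3.06 CPM, and the log2 fold change of -0.73 ± 0.45 (SE) was not called (edgeR adjusted *p* = 0.318). In microglia, 9, 4 and 5 counts in WT overlapped with 4, 5 and 11 in KIN. In neurons, no library exceeded 2 counts.

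*Pcp2* (ENSMUSG00000004630; GRCm39 chromosome 8, 3673371 to 3675545, minus strand), the Purkinje cell marker, was the rarest member. It had 2, 3 and 6 counts in WT and 0, 2 and 0 in KIN astrocytes, 4, 1 and 3 against 1, 0 and 1 in microglia, and 0, 5 and 0 against 0, 0 and 0 in neurons. Over all 3 fractions, 24 counts in WT stood against 4 in KIN, a ratio of 6.32 after scaling with a 95% interval from 2.17 to 25.1 that covers counting error only. All 5 neuronal counts lay in WT replicate 2, the neuronal library with 249 CPM of oligodendrocyte markers. In the glial fractions alone, 19 counts stood against 4, a ratio of 4.57 (95% interval 1.52 to 18.5). Genotypes overlapped in astrocytes and did not overlap in microglia, where the lowest WT library had 1 count and the highest KIN libraries also had 1 count at a lower CPM. Part of this gene runs over *Pet100* on the opposite strand, and 35.9% of the 31-base words of its most counted protein-coding entry also occur in transcripts of another gene. As reads were counted without regard to strand, counts of *Pcp2* are uncertain. The main coding entries of *Cacna1a* and *Itpr1* also overlap annotated genes on the opposite strand. How far RNA of that strand added to their counts was not tested.

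Over all members, the comparison of KIN with WT gave 2 called of 5 tested in astrocytes (*Atp2b2* and *Cacna1a*, both lower), where 8.84% of the 11751 genes tested were called. In microglia, 1 of 5 was called (*Atp2b2*, lower) against 1.52% of 10831 genes. In neurons, 0 of 3 tested members were called by edgeR and by DESeq2, with 0 at an unadjusted *p* under 0.05, against 0.0739% of 6765 genes. Calls in the neuronal fraction were thus rare for any gene at this depth. The median log2 fold change of the members tested was -0.83 in astrocytes, -0.15 in microglia and -0.04 in neurons, beside medians over all genes of -0.0042, -0.006 and 0.045.

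In the compound comparison of all 9 KIN with all 9 WT libraries, with the fraction as a covariate, 2 of 6 members were called, against 2.07% of 13552 genes. This fit treats the 3 fractions of a brain as independent libraries, which can make its *p* values too small. Summing the counts of the 3 fractions by genotype and replicate number, which assumes that a number marks the same mouse, also called 2 members, the same 2 genes. *Atp2b2* fell by 1.37 ± 0.25 (SE) on the log2 scale (edgeR adjusted *p* = 2.50e-04). *Pcp2* passed with an edgeR adjusted *p* of 0.0394 on the counts given above, and this call was lost whenever any replicate was left out and under DESeq2. *Itpr1* and *Cacna1a* had log2 fold changes of -0.46 ± 0.21 and -0.56 ± 0.27 (SE), not called (edgeR adjusted *p* = 0.262 and 0.296). The KIN effect differed between neurons and astrocytes for 0 of 6 members, with 3 at an unadjusted *p* under 0.05, against 1.17% of 12358 genes, and between neurons and microglia for 0 of 5, with 1 at an unadjusted *p* under 0.05, against 0.0778% of 11575 genes (edgeR; DESeq2 also called 0 in each). The nearest to a call was *Atp2b2*, whose KIN effect was 1.83 ± 0.53 (SE) higher in neurons than in astrocytes (edgeR adjusted *p* = 0.0584). Without WT replicate 2 this difference was called, at an adjusted *p* of 0.0313.

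**Figure D2:**
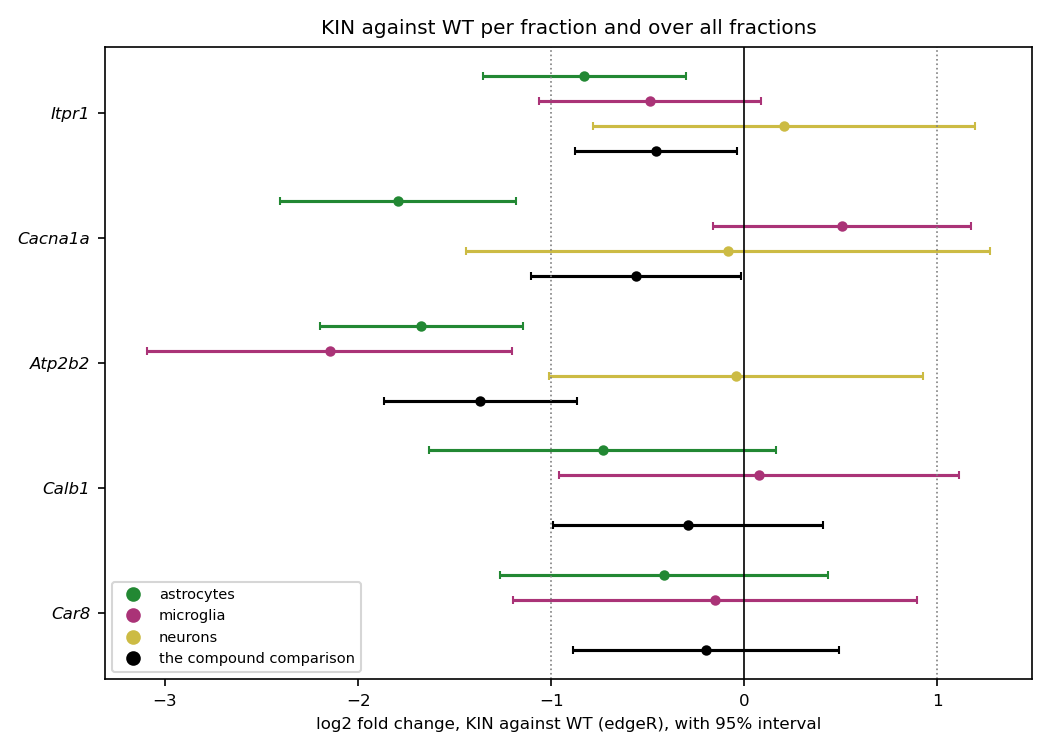
Log2 fold change of KIN against WT (horizontal axis, edgeR) of each gene in the 3 fractions and the compound comparison, with 95% intervals; dotted lines mark the fold required for a call. *Pcp2* is not drawn and other fractions are missing where a group had no library above 3 counts. *Cacna1a* in microglia lies to the right of 0 while *Cacna1a* in astrocytes lies at -1.80.

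For *Itpr1* and *Calb1*, the most counted transcript entry was not a coding one, and the entries are given separately. The most counted *Itpr1* entry, ENSMUST00000203288, is annotated as a retained intron. It is a single exon at GRCm39 chromosome 6, 108485274 to 108489891, that covers exon 55 of the 62 exons of the protein-coding transcript ENSMUST00000032192 and runs on into intron 55. It had 11, 11 and 9 counts in WT and 14, 14 and 9 in KIN astrocytes. Protein-coding entries of the gene together had 54, 20 and 52 counts in WT and 19, 8 and 13 in KIN astrocytes, or 13.9 ± 6.58 CPM against 4.84 ± 0.696 CPM. The coding counts separated the genotypes without overlap, since the lowest WT library had 6.48 CPM and the highest KIN library 5.46 CPM, while the retained-intron counts overlapped.

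The retained-intron entry thus held 17.9% of the *Itpr1* counts of WT astrocytes (exact 95% binomial interval 12.5 to 24.5) and 42.5% of those of KIN astrocytes (32.0 to 53.6). In microglia, its share was 35.3% in WT (26.1 to 45.4) and 57.3% in KIN (45.4 to 68.7). In neurons it was 21.1% (6.05 to 45.6) and 26.8% (14.2 to 42.9) on 19 and 41 counts. These intervals cover counting error only.

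Each entry was then fitted on its own, a test added after these counts had been seen. In astrocytes, ENSMUST00000032192 fell by 1.40 ± 0.38 (SE, edgeR adjusted *p* = 0.00775) and the coding entry ENSMUST00000203615 fell by 1.52 ± 0.43 (SE, edgeR adjusted *p* = 0.0102) on the log2 scale. The retained-intron entry had a log2 fold change of 0.38 ± 0.39 (SE, edgeR adjusted *p* = 0.609). Both coding entries were called, where 8.37% of 15548 entries were called in astrocytes. In microglia, 0 of 3 *Itpr1* entries were called by edgeR, with 1 (ENSMUST00000203615, log2 fold change -2.11) at an unadjusted *p* under 0.05, against 0.92% of 14126 entries; DESeq2 was not run on entries. A test of whether entries of the same gene moved apart (diffSpliceDGE in edgeR) gave an unadjusted *p* of 0.00283 for *Itpr1* in astrocytes and an adjusted *p* of 0.271, so the split did not pass over all genes, of which 0.193% were called. Near-identical coding entries share reads, and how these were divided between ENSMUST00000032192 and ENSMUST00000203615 is uncertain.

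When only protein-coding entries were summed, also chosen after seeing these counts, *Itpr1* was called in astrocytes with a log2 fold change of -1.54 (edgeR adjusted *p* = 3.57e-04), which makes 3 members called. It stayed uncalled in microglia at -0.87 (edgeR adjusted *p* = 0.342) and in neurons at 0.49. *Atp2b2* and *Cacna1a* kept log2 fold changes of -1.57 and -1.69 in astrocytes.

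*Calb1* was also counted mostly in a retained-intron entry in astrocytes. Its most counted entry, the retained intron ENSMUST00000141336, had 6, 7 and 5 counts in WT and 5, 3 and 7 in KIN astrocytes. The protein-coding entry ENSMUST00000029876 had 2, 6 and 3 counts in WT and 0, 0 and 0 in KIN astrocytes, with 11 counts against 0 in all. In microglia, the coding entry had 2, 0 and 0 counts in WT and 2, 0 and 2 in KIN, so that the genotypes overlapped there. The 0 of 17 *Calb1* counts in KIN astrocytes allow a coding share of up to 19.5% (exact 95% binomial interval), against 34.4% in WT (18.6 to 53.2). These intervals cover counting error only, and the split of *Calb1* was not tested over libraries.

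Both retained-intron entries hold a long run of A in the intron, which is shown here because the library protocol relied on poly(A) at the 3′ end. A stretch around each run is given 5′ to 3′ on the plus strand of GRCm39, with the run in capitals, at chr6:108488765-108488884 in intron 55 of *Itpr1* and chr4:15895715-15895836 in intron 5 of *Calb1*:
*Itpr1* ENSMUST00000203288: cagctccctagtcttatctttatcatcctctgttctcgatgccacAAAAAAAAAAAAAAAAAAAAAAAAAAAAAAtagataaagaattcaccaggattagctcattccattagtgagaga
*Calb1* ENSMUST00000141336: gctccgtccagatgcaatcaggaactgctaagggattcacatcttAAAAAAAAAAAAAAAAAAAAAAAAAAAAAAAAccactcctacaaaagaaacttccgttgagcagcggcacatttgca
The runs are 30 and 32 bases long. The *Itpr1* retained-intron entry also holds a run of 26 T, which reads as A on the opposite strand. As reads were counted without regard to strand, RNA of either strand can have been counted, and a run of 20 or more T occurs in 1.20% of transcripts. No other entry of the members with at least 20 counts had a run of A longer than 14 bases. A run of 20 or more A occurs in 0.911% of 116210 transcripts and in 0.752% of 21535 retained-intron transcripts of the annotation. Whether reads began at these runs was not tested, since the files hold counts and no read positions.

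**Figure D3:**
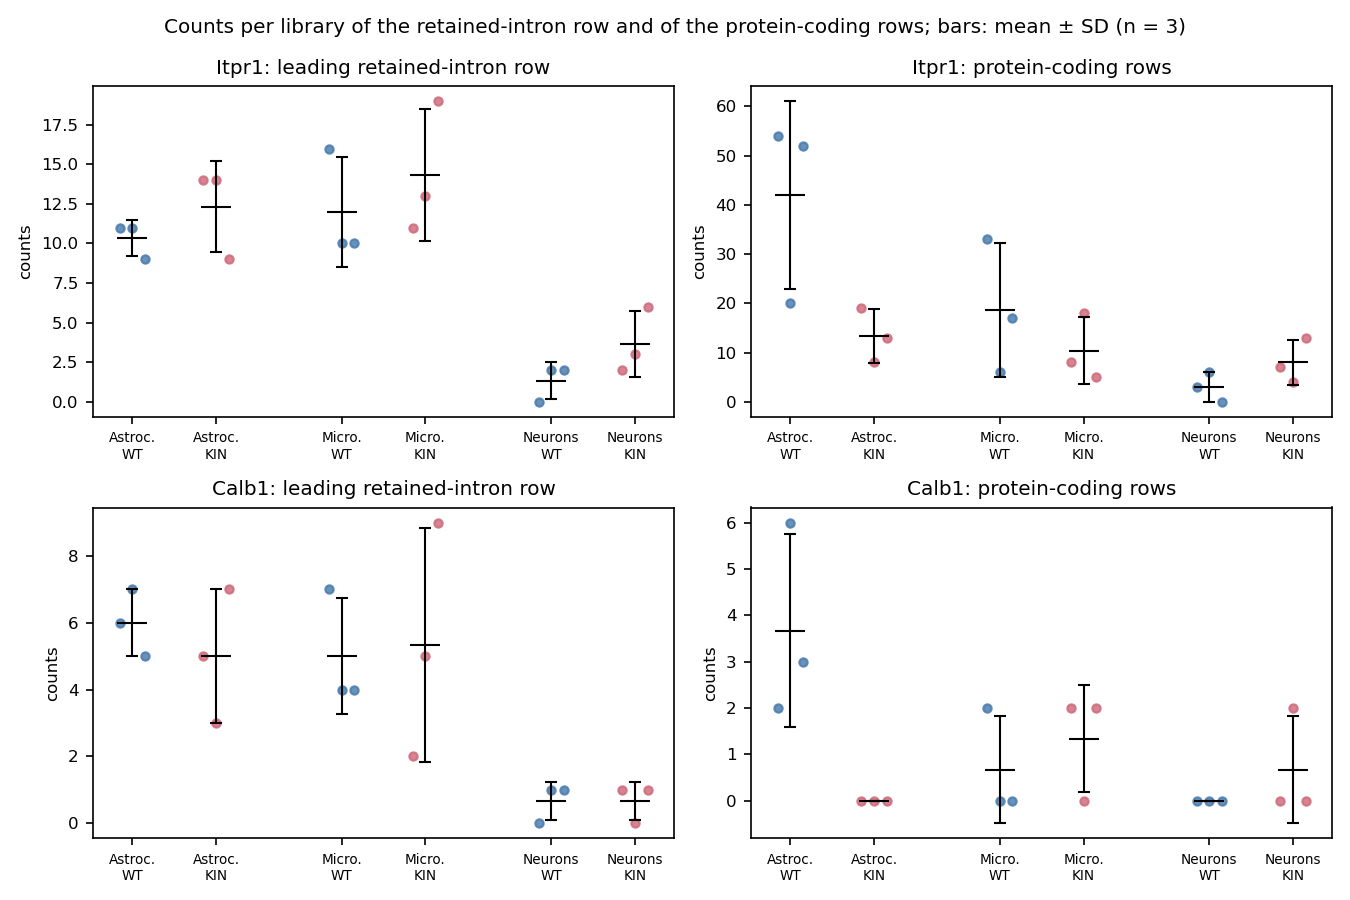
Counts (vertical axis) per library of the leading retained-intron entry (left) and of the protein-coding entries together (right) for *Itpr1* (top) and *Calb1* (bottom). Points are libraries and bars are mean ± SD (n = 3). In astrocytes, the coding entries of *Itpr1* lie at 20 to 54 counts in WT and 8 to 19 in KIN, while the retained-intron entry lies at 9 to 14 counts in both genotypes.

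Entries of *Atp2b2* and *Cacna1a* moved in the same direction within each gene. Most of these entries overlap over much of their length and share reads, and how reads were divided among them is uncertain. Their values are therefore not independent of each other. In astrocytes, log2 fold changes of the 6 *Atp2b2* entries tested ran from -2.58 to -1.19, with 3 called, and those of the 4 *Cacna1a* entries ran from -2.20 to -1.40, with 4 called (edgeR). In microglia, the 4 *Cacna1a* entries all had positive values between 0.31 and 0.83, with 0 called by edgeR and 0 at an unadjusted *p* under 0.05. Most coding *Cacna1a* entries hold 31-base words that occur in up to 1803 other genes. In the entry ENSMUST00000215756, no word occurs in more than 2 other genes, although 8.27% of its words are shared. This entry had log2 fold changes of -2.20 in astrocytes and 0.31 in microglia.

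Neuronal markers were lower in the same KIN libraries, and this is given beside the members. In astrocytes, 5 of 7 general neuronal markers were called lower, with a median log2 fold change of -2.04. *Snap25* fell by 2.54 ± 0.35 and *Syt1*, the calcium sensor of synaptic vesicles, by 2.41 ± 0.43 (SE, edgeR adjusted *p* = 1.68e-06 and 9.12e-05). In microglia, 3 of 7 were called lower, with a median of -2.20. These were *Eno2*, *Syt1* and *Snap25*, each called in 2 of 6 cases with a library left out. In astrocytes, *Stmn2* was called in 2 of 6 such cases, and the other markers called there in 6 of 6. *Tubb3* and *Map2* were not called in astrocytes, with *Tubb3* at 7.75 CPM in WT and 15.1 CPM in KIN and *Map2* at 16.6 ± 4.07 CPM and 14.2 ± 4.40 CPM. Markers of narrower neuronal types were lower in the same libraries. In astrocytes, 4 of 5 excitatory forebrain markers (median -2.34), 2 of 3 inhibitory markers (-1.80) and 3 of 4 cerebellar granule cell markers tested (-1.91) were called lower. The inhibitory markers called, *Gad1* and *Gad2*, were each called in 1 of 6 cases with a library left out. Of 3 markers of Bergmann glia, which are not neurons, 0 were called by edgeR, with 2 at an unadjusted *p* under 0.05 (median -0.57). Their summed CPM was higher in KIN without overlap, at 29.6 to 41.5 in WT and 47.0 to 61.2 in KIN. In microglia, 3 of 4 excitatory, 0 of 3 inhibitory and 1 of 4 granule cell markers were called lower, with medians of -2.08, -2.18 (-2.08 with a gene at 0 in KIN set to its bound) and -1.67 and with 2 of the inhibitory markers at an unadjusted *p* under 0.05. Of the excitatory markers, *Nrgn* was called in 6 of 6 cases with a library left out, and *Camk2a* and *Slc17a7* in 1 of 6 each. Of 3 endothelial markers in microglia, 1 was called lower, with a median of -0.22. It was *Cldn5*, a tight junction protein, which fell by 2.12 ± 0.45 (SE, edgeR adjusted *p* = 0.0133) and was called in 4 of 6 cases with a library left out. The endothelial markers summed to 37.4 to 49.1 CPM in WT and 46.2 to 50.4 CPM in KIN, with overlap.

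Relative to the summed CPM of these 7 markers, *Itpr1* overlapped between the genotypes in astrocytes, at 23.7 ± 1.67% in WT and 27.9 ± 8.67% in KIN (SD, n = 3 each). *Cacna1a* was at 23.5 ± 1.37% in WT and 13.6 ± 6.46% in KIN, and *Atp2b2* at 35.8 ± 4.16% and 22.9 ± 6.52%. In both genes the lowest WT library lay above the highest KIN library. With each marker left out in turn, an alternative added after seeing the data, both genes stayed lower in KIN on this scale, with KIN minus WT between -14.7 and -5.39 percentage points for *Cacna1a* and between -19.8 and -3.99 for *Atp2b2*, but the genotypes overlapped without *Tubb3* and without *Map2*. The markers *Tubb3* and *Map2*, which were not called in astrocytes, were not left out together. Whether the direction holds without both was therefore not tested. For *Itpr1*, KIN minus WT lay between 0.88 and 17.8 percentage points, and without *Tubb3* it was higher in KIN without overlap. In microglia, over all 7 markers, *Cacna1a* was at 18.4 ± 3.36% in WT and 109 ± 21.4% in KIN and *Itpr1* at 37.8 ± 8.17% and 97.5 ± 27.5%, without overlap, while *Atp2b2* overlapped at 27.1 ± 9.48% and 23.6 ± 19.7%. *Calb1* and *Car8* were also higher in KIN without overlap, at 7.32 ± 3.28% in WT for each and at 24.7 ± 10.6% and 21.4 ± 5.02% in KIN. These percentages rest on a marker sum of only 8.59 to 10.5 CPM in the KIN microglia, and *Cacna1a*, *Itpr1*, *Calb1* and *Car8* themselves overlapped between the genotypes in CPM. In the neuronal fraction, all 3 genes lay between 1.44% and 12.5% of the marker sum. In microglia, *Cacna1a* and *Itpr1* stayed higher in KIN without overlap whichever marker was left out.

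Markers of glia also differed between the genotypes in the astrocyte fraction. Of 6 astrocyte markers, 2 were called lower, *Gja1*, a gap junction protein, by 1.39 ± 0.22 and *Fgfr3*, a growth factor receptor, by 1.16 ± 0.21 (SE, edgeR adjusted *p* = 1.30e-05 and 1.36e-04). All 6 were at an unadjusted *p* under 0.05, 5 of them lower, while *Gfap*, a filament protein of astrocytes, was at 9.71 ± 4.78 CPM in WT and 17.0 ± 1.43 CPM in KIN and was not called. The 6 oligodendrocyte markers summed to 393 to 606 CPM in WT and 714 to 717 CPM in KIN, without overlap. Of these, *Mog* and *Cnp*, which encode myelin proteins, rose by 1.27 ± 0.23 and 1.12 ± 0.22 (SE, edgeR adjusted *p* = 1.08e-04 and 3.17e-04). Of 3 microglia markers tested in this fraction, all were lower (median -1.27) and 1 was called, *Itgam*, an integrin, on 18 counts in WT against 2 in KIN. Its call was kept in 1 of the 4 cases tested with a library left out. The part of neuronal or glial RNA in the fall of the members was not tested.

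**Figure D4:**
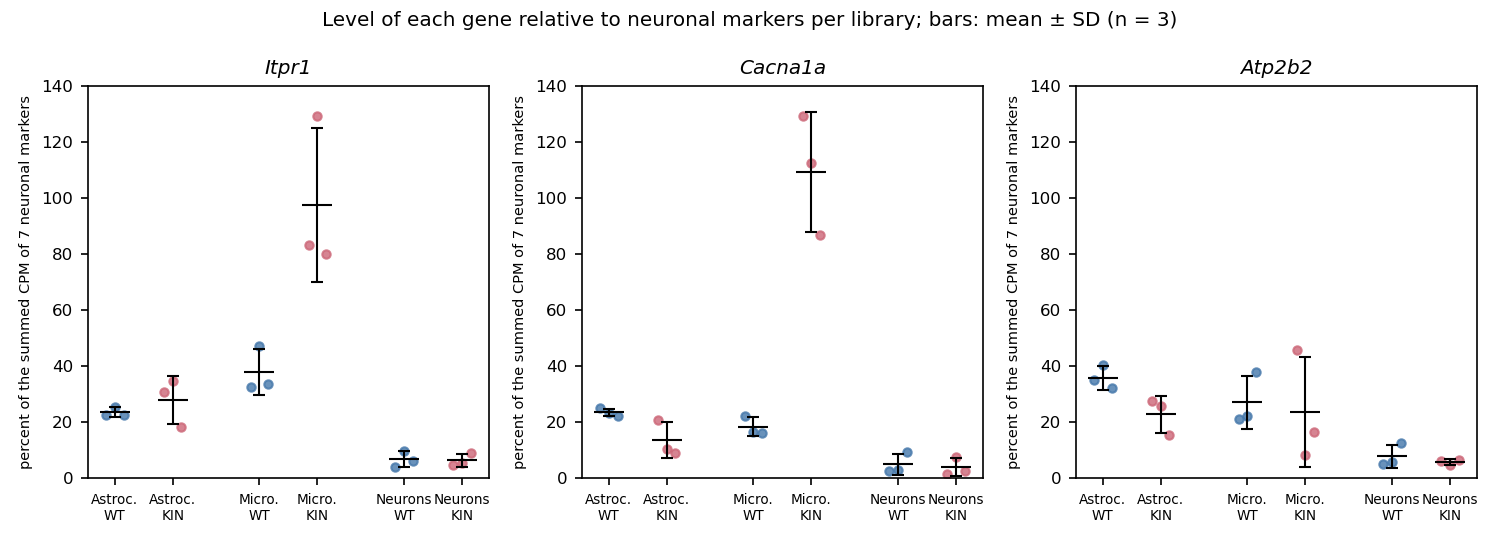
Level of *Itpr1*, *Cacna1a* and *Atp2b2* as a percent of the summed CPM of 7 general neuronal markers (vertical axis) per library; bars are mean ± SD (n = 3). In microglia, *Cacna1a* lies at 16.3 to 22.3% in WT and 86.7 to 129% in KIN.

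The fractions of WT mice were compared with each other to see where these genes were most abundant. *Atp2b2* was most abundant in astrocytes with a mean of 28.6 CPM, followed by microglia with 9.75 CPM and neurons with 7.79 CPM. The order was the same for *Cacna1a* (19.5, 6.79 and 4.79 CPM) and *Itpr1* (19.1, 12.6 and 7.00 CPM). In neurons against astrocytes, 4 of 6 members were called lower, where 17.9% of 12305 genes were called in either direction. All 4 red blood cell markers were called higher in neurons than in astrocytes in the same comparison (median 4.36), and their part in the members' difference was not tested. *Atp2b2* had a log2 fold change of -1.84 ± 0.42, *Cacna1a* of -2.01 ± 0.48 and *Itpr1* of -1.35 ± 0.42 (SE, edgeR adjusted *p* = 3.31e-04, 6.66e-04 and 0.0137). *Car8* was called on 33 counts in astrocytes against 1 in neurons, a ratio of 9.57 after scaling (95% interval 1.60 to 389; edgeR adjusted *p* = 0.0335). Without WT replicate 1 none of the 4 was called, without WT replicate 3 the count was 2, and DESeq2 called 2, *Atp2b2* and *Cacna1a*.

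Neurons and microglia of WT mice did not differ for any member at the threshold, with 0 of 6 called by edgeR, 0 by DESeq2 and 1 at an unadjusted *p* under 0.05, against 16.9% of genes. Without WT replicate 2, *Itpr1* was called. In astrocytes against microglia, *Atp2b2* was 1.48 ± 0.33 and *Cacna1a* 1.39 ± 0.35 higher (SE, edgeR adjusted *p* = 1.57e-04 and 7.84e-04), as 2 of 6 members against 25.1% of genes, and *Cacna1a* was lost without WT replicate 3.

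In the 9 KIN libraries the order was another one. *Cacna1a* was highest in microglia with a mean of 10.4 CPM, against 5.34 CPM in astrocytes and 5.12 CPM in neurons, with a log2 fold change of -1.11 in neurons against microglia (edgeR adjusted *p* = 0.0165). *Atp2b2* averaged 8.96 CPM in astrocytes and 8.36 CPM in neurons against 2.28 CPM in microglia, with neurons 1.88 higher than microglia on the log2 scale (edgeR adjusted *p* = 2.70e-04). Over the KIN libraries, neurons against microglia gave 2 called of 5 members tested, where 26.6% of 12271 genes were called, and astrocytes against microglia gave 1 of 5 (*Atp2b2*), against 36.3% of genes. Neurons and astrocytes gave 0 of 5, with 1 at an unadjusted *p* under 0.05, against 30.1% of genes (edgeR; DESeq2 was not run on the KIN libraries alone).

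The other genes of the same pathways were taken from lists of gene symbols, and their KIN effects in astrocytes were mostly negative. Their counts stand beside the 8.84% of all genes called in this fraction. Of 15 other voltage-gated calcium channel subunits tested, 6 were called lower and 0 higher, with a median log2 fold change of -1.03. *Cacna1e*, the R-type pore subunit, fell from 14.1 to 2.94 CPM (-2.29 ± 0.37), *Cacna1c*, an L-type pore subunit, by 1.92 ± 0.40 and *Cacna1g*, a T-type pore subunit linked to ataxia, by 2.24 ± 0.51 (SE, edgeR adjusted *p* = 2.24e-05, 6.04e-04 and 0.00196). Among 10 store release and store entry genes, 3 were called lower (median -0.62), all of them ryanodine receptors. *Ryr2* fell by 2.36 ± 0.36 (SE, edgeR adjusted *p* = 6.75e-06), whereas the other inositol trisphosphate receptors were not called, *Itpr2* at 7.59 CPM in WT and 6.16 CPM in KIN and *Itpr3* at 2.80 ± 1.54 CPM and 1.03 ± 0.474 CPM.

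Among 16 genes for the production and removal of inositol trisphosphate, 4 were called lower (median -0.51). *Grm5*, a glutamate receptor, had 34 counts in WT against 2 in KIN, and *Itpka*, a kinase that uses up inositol trisphosphate, had 25 against 2. Of 12 pumps and exchangers, 2 were called lower (median -0.55), among them *Atp2b3*, a sister gene of *Atp2b2*, by 1.24 ± 0.41 (SE, edgeR adjusted *p* = 0.0395). *Atp2b1*, the widely expressed sister gene, was not called, at 13.5 ± 5.01 CPM in WT and 9.18 ± 0.675 CPM in KIN. Of 10 calcium buffers and sensors, 5 were called lower (median -1.29), with *Caln1* at 77 counts against 8 and *Hpca*, hippocalcin, at 50 against 4.

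Other Purkinje cell genes gave a mixed result in astrocytes. Of 20 on the list, 13 were tested, with 3 called lower and 1 higher and a median of -0.99. *Rgs8*, a regulator of G protein signalling, had 18, 9 and 16 counts in WT and 1, 1 and 2 in KIN, without overlap. *Pcp4*, a calmodulin regulator, had 6, 2 and 11 counts against 0, 0 and 1. *Dner*, a Notch ligand, rose from 2.97 ± 0.710 CPM to 7.39 ± 0.928 CPM (log2 fold change 1.28 ± 0.34, SE, edgeR adjusted *p* = 0.00882). *Slc1a6*, *Skor2* and *Ppp1r17*, which mark Purkinje cells more narrowly, had at most 5 counts in any library and were not tested, so that the presence of Purkinje cell RNA in a fraction rests on few counts.

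Among 35 tested genes of other inherited ataxias, 6 were called lower in astrocytes (median -0.21). *Atxn2* itself, the targeted gene, was not called in any fraction, at 10.9 ± 0.497 CPM in WT and 9.20 ± 1.74 CPM in KIN astrocytes, 9.92 ± 2.71 CPM and 6.90 ± 1.24 CPM in microglia, and 6.28 ± 3.58 CPM and 6.37 ± 1.52 CPM in neurons. A repeat expansion in the allele does not remove the transcript, so this level does not check the genotype labels. Of 9 carbonic anhydrase genes tested, 1 was called lower, a share near that of all genes. It was *Car10*, which fell by 2.58 ± 0.50 (SE, edgeR adjusted *p* = 2.60e-04; median 0.05). With each astrocyte library left out in turn, *Atp2b3* was called in 2 of 6 cases, *Dner* in 4 of 6 and *Pcp4* in 2 of the 4 in which it was tested, while *Cacna1e*, *Cacna1c*, *Cacna1g*, *Ryr2*, *Grm5*, *Itpka*, *Caln1*, *Hpca*, *Rgs8* and *Car10* were called in every case tested.

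In microglia, where 1.52% of all genes were called, few genes of these lists were called. *Slc24a2*, a potassium-dependent sodium and calcium exchanger, was called lower on 23, 4 and 5 counts in WT against 1, 1 and 0 in KIN, so that WT replicate 1 held most of them. Of 31 ataxia genes tested, 3 were called lower, among them *Fat2* (22 counts against 2) and *Syne1*. *Car9* was called higher, but its KIN libraries had 304, 1525 and 2617 counts against 651, 361 and 339 in WT, with overlap. With each library left out in turn, *Slc24a2* and *Fat2* were each called in 1 of the 4 cases in which they could be tested, *Syne1* in 1 of 6 and *Car9* in 2 of 6. The other lists had 0 called by edgeR among 50 genes tested in microglia, with 14 at an unadjusted *p* under 0.05 and medians between -1.41 and 0.04. In neurons, the lists had 0 called among 49 genes tested, with 5 at an unadjusted *p* under 0.05. DESeq2 was not run on the lists.

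**Figure D5:**
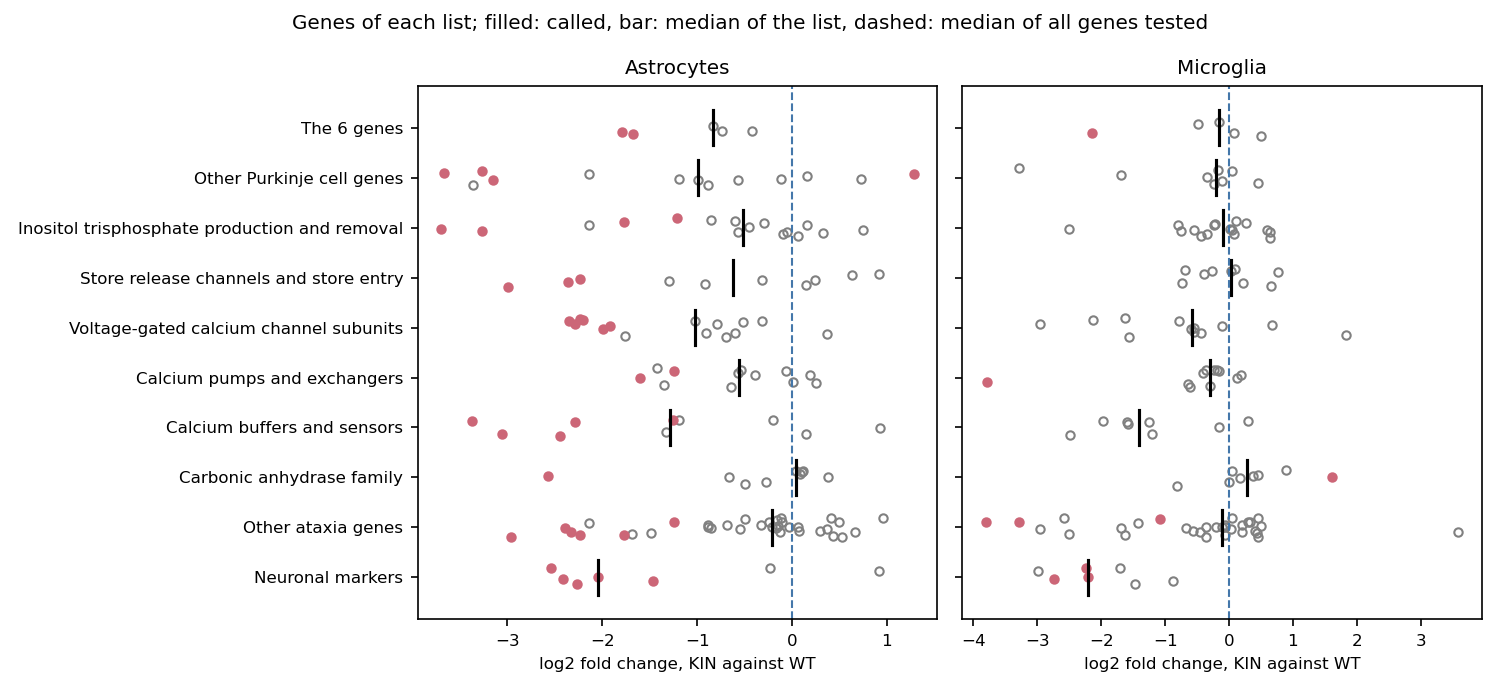
Log2 fold change of KIN against WT (horizontal axis) of each tested gene in the lists (rows) in astrocytes (left) and microglia (right); filled points are called, black bars are list medians and the dashed line is the median of all genes tested. In astrocytes, medians of the calcium channel and calcium buffer lists lie at -1.03 and -1.29, beside -2.04 for the neuronal markers.

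The genes with the most similar pattern were found by Pearson correlation of log2 CPM (prior count 2) over the 18 libraries, among 13552 genes, and the correlation after removal of the 6 group means is given second. For *Atp2b2* they were *Septin5* (0.92 and 0.72), *Spock2* (0.88 and 0.79) and *Syn2* (0.87 and 0.66), which includes a septin and a synapsin of nerve endings. For *Itpr1* they were *Syt2* (0.89 and 0.84), *Pacsin1* (0.88 and 0.78) and *Aak1* (0.87 and 0.74). For *Cacna1a* they were *Bicra* (0.86 and 0.91), *Smarcad1* (0.85 and 0.63) and *Rasgef1a* (0.81 and 0.66). For *Calb1*, *Car8* and *Pcp2*, *Vps13b* (0.91 and 0.91), *Tcf25* (0.93 and 0.73) and *Nrg3* (0.88 and 0.88) were nearest, on few counts. Without the neuronal library WT replicate 2, which holds 5 of the *Pcp2* and 4 of the *Nrg3* counts, *Nrg3* with *Pcp2* went from 0.88 to 0.77 (17 libraries), while *Vps13b* and *Tcf25* were at 0.93 each. Among the members, *Calb1* with *Car8* (0.84 and 0.51) was the most similar pair over the 18 libraries and *Cacna1a* with *Pcp2* (0.10 and -0.18) the least. The libraries share their depth, fraction and genotype, and these values are descriptions.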

How the data were processed

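The authors trimmed reads with Cutadapt 4.6, removed duplicates by unique molecular identifiers, mapped them with Bowtie2 2.4.4 to mm39 and counted them with HTSeq 2.0.2 without regard to strand. The deposited values used here are whole-number counts per transcript, without normalization. Another 36 columns of per-sample normalized values, and the authors' columns of fold changes, standard errors and *p* values of their own comparisons, were not used. Entries without a name numbered 137 and kept their identifiers as names.

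Counts were summed by gene name. A gene was tested when 2 or more libraries of the fit held 5 or more of its reads, with edgeR 4.0.16 (quasi-likelihood, TMM scaling, prior count 0.125) in R 4.3.3, with Benjamini-Hochberg adjustment over all genes, and standard errors were obtained from the F statistic. Single fractions used 6 libraries, the compound comparison 18 with fraction as a covariate, fractions of WT mice 9, and interaction terms between fractions 12. Each library came from a separate mouse within its group, and *p* values measure the spread between these libraries. Fractions came from the same mice and were fitted as independent, since replicate numbers were not shown to pair them: deviations of same-numbered libraries of 2 fractions correlated between -0.07 and 0.24, with 2 of 18 pairs over 0.1, both between WT astrocytes and WT microglia. DESeq2 1.42.0, other scalings and filters, the single entry of highest mean, protein-coding entries, a replicate block and each replicate left out were the alternatives, of which protein-coding entries, fits of each entry and marker sums with each neuronal marker left out and list genes with each library left out were added after seeing the data. Fitted folds are given only where each group compared has a library above 3 counts, and elsewhere counts or ratios with exact intervals are given. All members are named; of each list, genes called in a comparison could be named, at most the 6 with the lowest adjusted *p*, and others (*Itpr2*, *Itpr3*, *Atp2b1*, *Atxn2* and rare Purkinje markers) were chosen after their values were seen. Transcript positions and sequences come from GENCODE vM39 on GRCm39, the assembly of mm39, where 116159 of 116873 identifiers matched. The tests were checked on simulated data. The members and lists were chosen with earlier results of these data known. Some genes of the lists are counted but not reported by name here.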

Additional observations from a re-analysis of the deposited data

Results flagged for a closer look

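The KIN effect on *Cacna1a* differed between the glial fractions. On the log2 scale it was 2.30 higher in microglia than in astrocytes by the interaction term in edgeR (adjusted *p* = 0.00293), with lower levels in 3 of 3 KIN astrocyte libraries than in any WT astrocyte library and overlapping levels in microglia. In 14 of 15 alternatives the difference was called, with adjusted *p* between 2.05e-06 and 0.24; the exception was the single transcript entry with the highest mean, where it was 1.88 (edgeR adjusted *p* = 0.24).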

How the results depend on the processing

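Of 150 settings of the counts of members called and the levels, 24 were weaker, 3 were stronger and the others stayed on the same side, and of 683 settings of values of single members 602 stayed the same, 19 were weaker, 6 stronger, 27 reversed and 29 moved by more than the replicate SD. *Atp2b2* and *Cacna1a* were called in astrocytes in all 16 alternatives. In microglia the count of members called fell from 1 to 0 with DESeq2 and with the single entry of highest mean, and was 0 to 1 with a replicate left out. In the compound comparison it fell from 2 to 1 with DESeq2, with a filter at a mean of 10 counts, with the entry of highest mean and without any one replicate, and to 0 without the fraction covariate. For microglia minus astrocytes it fell to 0 with the entry of highest mean, and for neurons minus astrocytes it was 0 to 1 with a replicate left out. For WT neurons against WT astrocytes it was 2 with DESeq2, 0 to 4 with a replicate left out and 0 in the KIN libraries. For WT neurons against WT microglia it was 0 to 1 with a replicate left out and 2 in the KIN libraries. For WT astrocytes against WT microglia it was 1 with the entry of highest mean, 1 in the KIN libraries and 1 to 2 with a replicate left out.

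The entry of highest mean reversed *Itpr1*, for which it is the retained intron, to 0.40 in astrocytes, 0.13 in microglia, 0.32 in the compound comparison, -0.30 for microglia minus astrocytes and -0.36 for WT astrocytes against WT microglia. It also reversed *Calb1* in microglia (-0.028), *Atp2b2* for microglia minus astrocytes (0.47) and *Cacna1a* for neurons minus microglia (1.22). In neurons, *Cacna1a* and *Atp2b2* became 0.10 and 0.14 without a filter and 0.10 and 0.16 with all 18 libraries in one fit. In the KIN libraries, neurons against microglia gave 0.00084 for *Itpr1* and 1.88 for *Atp2b2*, and astrocytes against microglia -0.86 for *Cacna1a* and -0.20 for *Calb1*. With a replicate left out, ranges that crossed 0 were -0.44 to 0.28 for *Calb1* in microglia, in neurons -0.30 to 0.56 for *Itpr1*, -0.72 to 0.50 for *Cacna1a* and -0.27 to 0.29 for *Atp2b2*, and for *Cacna1a* -1.25 to 0.13 for neurons minus microglia and -1.22 to 0.22 for WT neurons against WT microglia. Except for the choice of entry or libraries, the cause was not tested.

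Over all genes, DESeq2 called 353 against 1039 in astrocytes and 38 against 165 in microglia. The levels of *Itpr1*, *Atp2b2*, *Calb1* and *Car8* in WT astrocytes were 26.7, 40.0, 4.86 and 5.04 CPM without scaling factors. Libraries with the same replicate number in WT and KIN correlated between -0.26 and 0.17 in their deviations, with 2 of 9 pairs over 0.1, so the numbers were not taken as pairs. With the replicate block, the members called stayed at 2 in astrocytes and in the compound comparison, 1 in microglia and 0 in neurons, and no other count of members changed, while calls over all genes were 1198 in astrocytes, 155 in microglia and 358 for microglia minus astrocytes. The members *Calb1*, *Car8* and *Pcp2*, with at most 13 counts in a library, and the neuronal fraction rest on few counts. The size of difference that could be called for them was not measured, so a missing call there does not show that levels were equal.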
